A study of Rattus norvegicus with 4 samples.

Results

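The 10 genes described here are the TGF-beta ligand gene Tgfb1, its receptor genes Tgfbr1 and Tgfbr2, the SMAD genes Smad2, Smad3, Smad4 and Smad7, and Spp1, Gpnmb and Fn1, which code for proteins known from macrophages of fibrotic lung. They were found by matching the accession of each non-control probe, without its version, to the RefSeq gene table of assembly GRCr8. All 10 genes had a probe, and together they had 12 of the array's 45598 probes, among 16581 named genes in all. RNA came from NR8383, a line of rat alveolar macrophages established from lung lavage, grown to passage 20 and seeded for 48 h in flasks of 25 cm2. The 4 cultures, called replicates 1 to 4, had each been incubated for 4 h with TiO2 (NRCWE001), a titanium dioxide particle, at a dose of 3 cm2/cm2. Each culture had an array of its own. The unexposed control that the series' design text also names was not analysed here. The values therefore describe exposed cells, and an effect of the particles cannot be measured from them.

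TGF-beta is secreted in a latent complex and, once released, joins a type II and a type I receptor, TGFBR2 and TGFBR1. The active receptor phosphorylates SMAD2 and SMAD3, which enter the nucleus with SMAD4, while SMAD7, itself induced by the pathway, blocks the receptor. In lung, macrophages are a known source of TGF-beta, and osteopontin (Spp1), the transmembrane glycoprotein GPNMB and fibronectin (Fn1) mark macrophage states described in lung fibrosis.

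Most genes of the signalling chain gave a signal well above background in the exposed cells, and Smad3, Spp1 and Fn1 did not. A gene was called detected where more than 0.5 of the spots of any of its probes carried the scanner software's "well above background" flag, on each of the 4 arrays. By this rule 7 of the 10 genes were detected, and the same rule was met by 45.7% of all named genes. The detected ones were Tgfb1, Tgfbr1, Tgfbr2, Smad2, Smad4, Smad7 and Gpnmb. Of the 12 probes, 8 were well above background on every array and 4 on none, and 31.8% of all probes were on every array. No detection call of these genes differed between the cultures, and leaving out any replicate kept the count at 7.

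**Figure D1:**
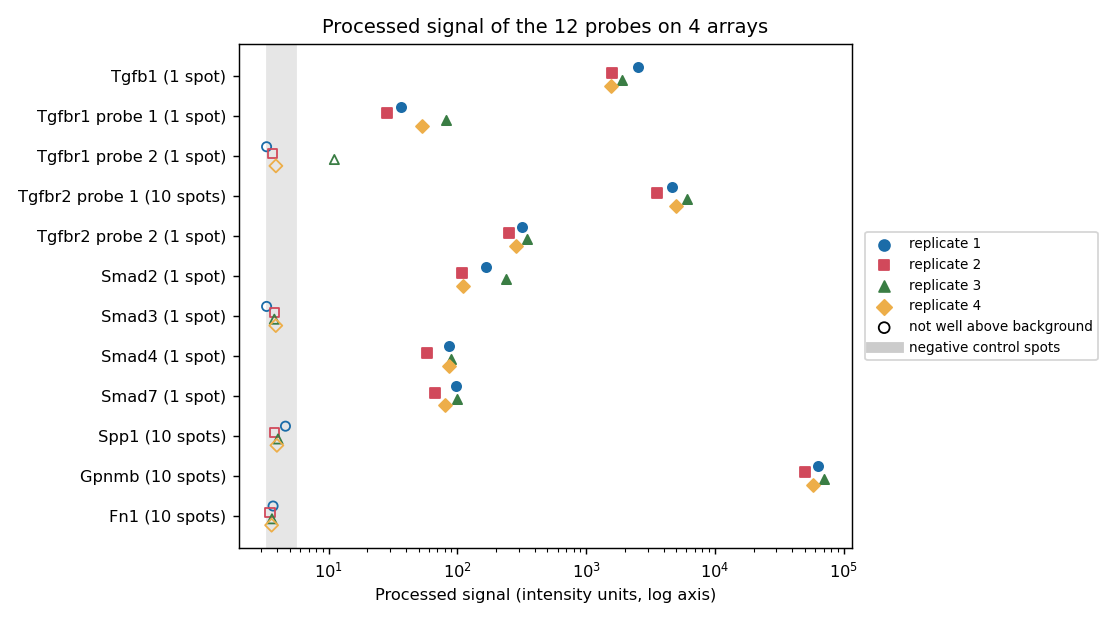
Processed signal (intensity units, log axis) of each of the 12 probes on the 4 arrays, averaged over a probe's spots. Open symbols mark the 4 undetected probes, and the grey band runs from the lowest median to the highest 95th percentile of the negative control spots (3.35 to 5.58 units). Gpnmb lay between 50366 and 70826 units, while Spp1 and Fn1 lay within the grey band on all arrays.

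Among the fibrosis-linked genes, the probe of Gpnmb was well above background on every array and those of Spp1 and Fn1 on none. Gpnmb and Spp1 carry this contrast, so the 250 bases before their start sites are shown, taken from RefSeq on GRCr8. The table held such a window for 9 of the 10 genes, Fn1 being the exception. Capitals mark matches, on either strand, to TCATGTG (the M-box, bound by MITF and its relatives), TGANTCA (the AP-1 site) and TATAAA (the TATA box). The windows are chr4:79340878-79341127 on the plus strand for Gpnmb and chr14:5619805-5620054 on the minus strand for Spp1. Gpnmb's window ends where its annotated gene begins. Spp1's lies inside the annotated span of its gene, so the start site used there is not the outermost one.
Gpnmb: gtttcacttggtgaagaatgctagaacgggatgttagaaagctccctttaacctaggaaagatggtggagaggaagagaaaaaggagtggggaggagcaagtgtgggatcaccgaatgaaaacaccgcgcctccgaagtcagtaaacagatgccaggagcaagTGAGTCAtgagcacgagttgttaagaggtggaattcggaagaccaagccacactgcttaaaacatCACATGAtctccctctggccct
Spp1: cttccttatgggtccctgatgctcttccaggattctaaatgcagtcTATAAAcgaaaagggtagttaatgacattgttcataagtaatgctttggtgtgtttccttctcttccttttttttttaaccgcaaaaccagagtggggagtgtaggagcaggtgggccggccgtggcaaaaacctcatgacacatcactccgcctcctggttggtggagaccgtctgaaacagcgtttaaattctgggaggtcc

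In the Gpnmb window the M-box match began 22 bases before the start site and the AP-1 match 87 bases before it. The TATAAA of the Spp1 window began 204 bases before the start site, and the window of Smad4 held TATAAA as well. Of 33469 windows of the same length, 3.07% held TCATGTG, 6.34% held TGANTCA and 12.9% held TATAAA. Of the 10 windows of these genes (Smad2 has 2), Gpnmb's was the only one with TCATGTG or with TGANTCA, and none held CACGTG, a further motif of the MITF family (5.59% of windows), or the SMAD palindrome GTCTAGAC (0.173%). The matches do not overlap each other and describe letters only.

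Tgfb1 codes for the ligand. Its only spot gave 2524, 1576, 1904 and 1567 units on replicates 1 to 4. Levels below are log2 of the processed signal minus the 75th percentile of the array's non-control spots, which was 433, 347, 554 and 414 units on replicates 1 to 4. They compare arrays for 1 probe, and not probes with each other. On this scale Tgfb1 lay at 2.54, 2.18, 1.78 and 1.92 on replicates 1 to 4. Replicate 1 was highest and replicate 3 lowest, a difference of 1.70-fold, with a mean of 2.11 ± 0.34 (SD, n = 4). The error that the scanner software gives for this spot was 0.144 on the log2 scale, below the SD between arrays. It gave the same 0.144 for Gpnmb and Tgfbr2 probe 1, so this error is not particular to the Tgfb1 spot. Against probes of like level, whose expected SD was 0.160, the spread had an unadjusted p of 0.0152 and an adjusted p of 0.470 by limma's prior variance over 14518 probes, so it was not called.

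The Tgfb1 spot lies in column 9, near the left edge of the array, where the software's spatial correction was large on replicate 1. The ratio of the processed signal to the background-subtracted signal before that correction was 1.78 at this spot on replicate 1, against 1.05, 1.12 and 1.09 on replicates 2 to 4. Before the correction the spot gave 1416, 1498, 1706 and 1431 units on replicates 1 to 4. Scaled in the same way, these values lay at 1.73, 2.11, 1.63 and 1.80, with replicate 2 highest and an SD of 0.21 (limma's prior variance, adjusted p = 0.992). Without replicate 1 the SD of the corrected values was 0.20. Which of the 2 signals is nearer to the amount of RNA was not tested.

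**Figure D2:**
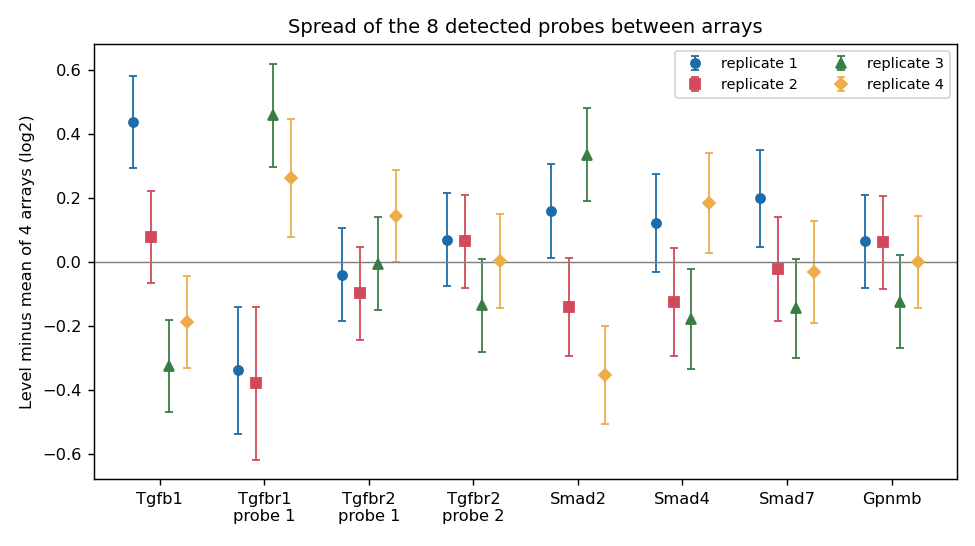
Level on each array minus the mean of the 4 arrays (log2) for the 8 probes detected on all arrays. Bars are the error that the scanner software gives for a single spot, so they overstate the error of the probes printed on 10 spots. Tgfb1 stands 0.44 above its mean on replicate 1, and Gpnmb and both Tgfbr2 probes differ from theirs by at most 0.14.

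The receptor genes had 2 probes each. Both probes of Tgfbr2 were detected, and 1 of the 2 of Tgfbr1. Tgfbr1 codes for the type I receptor kinase, and both of its probes carry the same transcript accession. Its probe 1 gave 36.7, 28.6, 81.8 and 53.3 units on replicates 1 to 4 and was well above background on every array. Its levels were -3.56, -3.60, -2.76 and -2.96, with replicates 3 and 4 above replicates 1 and 2. The SD of 0.42 (n = 4) compares with 0.273 expected at this dim level (limma's prior variance, adjusted p = 0.880). With normexp background correction of the median spot signals, which lack the spatial correction, it was 0.12. That setting adds an offset of 50 units, which is within the range of this probe's own signals, so the 0.12 is not on a like scale. Its probe 2 gave 3.31, 3.65, 11.1 and 3.90 units and was not well above background on any array. A more lenient flag, for signal above background by a significance test alone, was set for it on 1 array. Detection of Tgfbr1 therefore rests on probe 1, and with every probe of a gene required 6 of the 10 genes remained.

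Tgfbr2 codes for the type II receptor, which binds the ligand. Its probe 1 was printed on 10 spots per array, and 4 of these 40 spots, on replicates 1 and 2, were left out as outliers. The 36 spots kept were all well above background. Their averages were 4630, 3561, 6071 and 5032 units on replicates 1 to 4, and the levels were 3.42, 3.36, 3.45 and 3.60. The cultures differed little, at 3.46 ± 0.10 (SD, n = 4). Within an array the SD between spots was 0.09, 0.05, 0.09 and 0.10. These are SDs of single spots, while the SD between arrays is one of averages over 8 to 10 spots. Probe 2, which carries another transcript accession, gave 315, 252, 350 and 288 units on its single spot. Its level of -0.53 ± 0.10 had the same SD, while its order differed, with replicate 1 highest and replicate 3 lowest. Neither probe was called (limma's prior variance, adjusted p = 0.993 and 0.994).

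Of the SMAD genes, Smad2, Smad4 and Smad7 were detected and Smad3 was not. Smad2 codes for a receptor-activated SMAD. It gave 166, 108, 240 and 111 units on replicates 1 to 4, at levels of -1.38, -1.68, -1.20 and -1.89. Replicate 3 was 1.61-fold above replicate 4, and the mean was -1.54 ± 0.31 (SD, n = 4) where an SD of 0.204 was expected (limma's prior variance, adjusted p = 0.919). Smad3, the other SMAD of this branch, gave 3.31, 3.83, 3.80 and 3.90 units. Its spot was not well above background on any array, and its signals lay close to the medians of the negative controls, which were 3.35, 3.53, 3.72 and 3.69 units. On 1 array the lenient flag was set for it.

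Smad4 codes for the partner shared by all signalling SMADs. It gave 86.3, 58.2, 89.8 and 86.3 units and levels of -2.33, -2.57, -2.63 and -2.26, so the order of the arrays changed once each was scaled. The mean was -2.45 ± 0.18 (SD, n = 4). Smad7, the inhibitor that the pathway induces, gave 98.0, 67.3, 98.8 and 79.9 units and levels of -2.14, -2.36, -2.49 and -2.37. Its mean was -2.34 ± 0.14 (SD, n = 4), with replicate 1 highest. Both SDs were below the values expected at their levels, 0.241 for Smad4 and 0.236 for Smad7 (limma's prior variance, adjusted p = 0.993 for each).

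Gpnmb codes for a transmembrane glycoprotein found in phagocytes and melanocytes. All 39 of its kept spots were well above background, and none was saturated. The averages over spots were 63027, 50366, 70826 and 57655 units on replicates 1 to 4. At levels of 7.19, 7.18, 6.998 and 7.12, its SD was 0.09 around a mean of 7.12 (n = 4), where 0.225 was expected. The SD was 0.04 without replicate 3 and 0.12 after quantile normalization. Replicate 3 was lowest, and the range over the arrays was 1.14-fold.

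The spots of Gpnmb also showed how uneven the replicate 1 array was. There they ran from 49987 to 98093 units with an SD of 0.27 on the log2 scale, against 0.06, 0.07 and 0.08 on replicates 2, 3 and 4. The brightest lay in column 11 and had a correction ratio of 1.74. A further spot, in the same column at 46418 units, had been left out as an outlier. Among the 5 spots beyond column 72 the SD on replicate 1 was 0.07, and on those spots alone the level of Gpnmb on that array was 7.12, against 7.26 over the 4 kept spots of columns 1 to 72. With spots beyond column 72 alone, the mean of Gpnmb over the 4 arrays was 7.11 ± 0.07 (SD, n = 4).

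**Figure D3:**
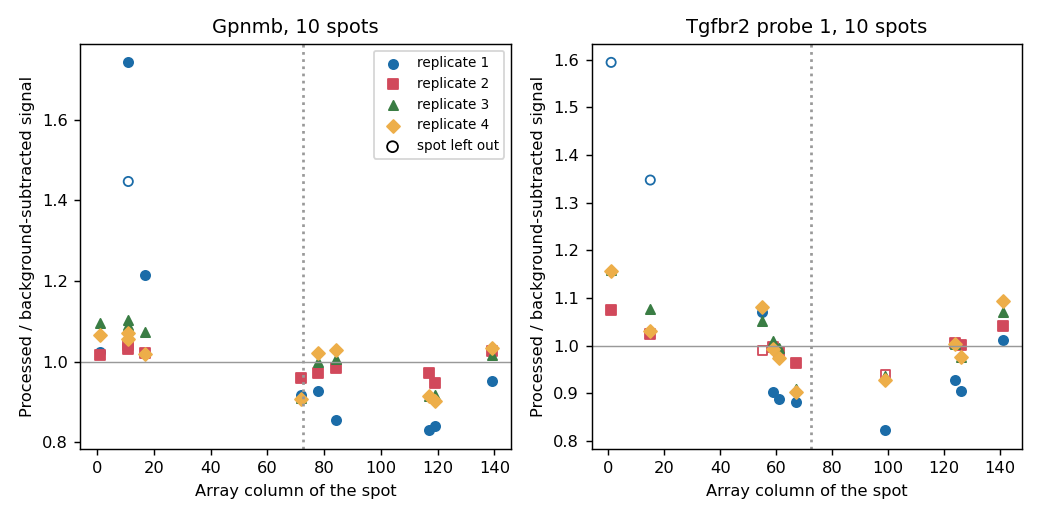
Ratio of the processed signal to the background-subtracted signal for each of the 10 spots of Gpnmb (left) and of Tgfbr2 probe 1 (right) against the array column of the spot. The dotted line marks column 72 and open symbols are spots left out as outliers. On replicate 1 the ratio reached 1.74 at column 11 for Gpnmb, while replicates 2 to 4 stayed between 0.903 and 1.16 in both panels.

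Spp1 codes for osteopontin, a secreted ligand of integrins and CD44. Its probe was printed on 10 spots per array. The median over spots was 4.42, 3.58, 3.88 and 3.77 units on replicates 1 to 4, and the brightest spot on any array had 10.2 units. None of the 39 kept spots was well above background, while the lenient flag was set on 8 of them (3, 1, 3 and 1 on replicates 1 to 4). Fn1 codes for fibronectin, a matrix protein. Its medians were 3.50, 3.51, 3.66 and 3.54 units, its brightest spot had 5.56 units, and none of its 40 spots was well above background or carried the lenient flag. The dimmest non-control spot that passed the flag had 13.5 to 16.6 units, depending on the array, and every spot of both genes was dimmer. That value is no strict limit. On replicate 4 it was 16.3 units, and a negative control spot with 16.6 units did not pass. The 95th percentile of the 308 negative control spots was 5.58, 3.89, 4.39 and 4.78 units, and no negative control passed the flag. Each of these genes had a single probe that matched by accession. As 24489 of the array's 45598 probes matched no gene, a further probe of either gene could have gone unseen. Whether the matched probe can bind the transcripts of this line was not tested.

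None of the 8 detected probes was called more variable between the arrays than probes of like level, with adjusted p between 0.470 and 0.997 by limma's prior variance. Among all 14518 probes tested, 63 were called (0.434%). The only one of the 8 with an unadjusted p under 0.05 was Tgfb1 (limma's prior variance). The median SD was 0.162 over the 8 probes and 0.176 over all tested probes. The first was the larger after quantile normalization (0.186 against 0.16) and before the spatial correction (0.204 against 0.19). It was also larger without replicate 2 (0.185 against 0.18) or 3 (0.147 against 0.146), and smaller in the other settings tried. Without replicate 1 the SD of Smad7 was 0.07, without replicate 3 that of Tgfbr2 probe 2 was 0.04, and without replicate 4 that of Tgfbr2 probe 1 was 0.05. With 4 arrays, an SD that was not called does not show that the cultures were alike. A culture and its array cannot be told apart, so this spread holds both. The series' design text calls the samples biological replicates, and the labels do not say how the cultures were kept apart.

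**Figure D4:**
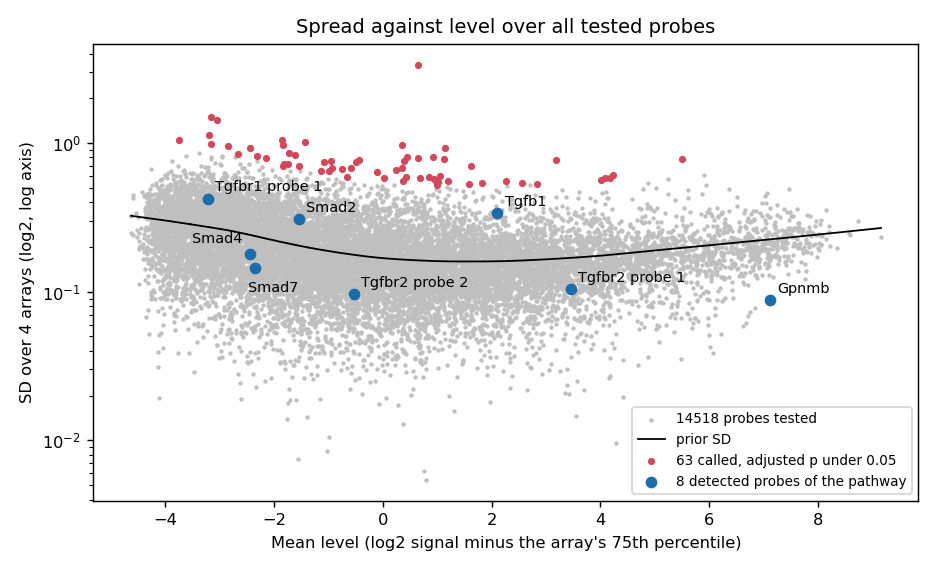
SD over the 4 arrays (log2, log axis) against mean level for all 14518 probes well above background on every array, with the fitted prior SD as a line and the 63 called probes in red. The 8 detected probes of these genes (blue) lie among the uncalled probes, Tgfb1, Smad2 and Tgfbr1 probe 1 above the line and the other 5 below it.

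No array was high or low for all of these genes. Replicate 1 was highest for 4 of the 8 probes (Tgfb1, Tgfbr2 probe 2, Smad7 and Gpnmb) and lowest for none, while replicate 3 was lowest for 5 and highest for 2, Tgfbr1 probe 1 and Smad2. Over all tested probes replicate 3 had a median deviation of -0.07. With the 75th percentile of detected probes as the scale, that deviation was 0.01 and replicate 3 was lowest for 2 of the 8 probes. After quantile normalization the deviation was -0.02, and replicate 3 was lowest for 4 probes and highest for 4. With normexp background correction, a setting that also lacks the spatial correction, replicate 1 was lowest for 1 probe and replicate 3 highest for 0.

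Around the 10 genes, lists of related genes were examined in the same way, and 45.7% of all named genes were detected on every array. The lists other than cell type markers hold 120 symbols, with the 10 genes themselves among them. Of these symbols 111 had a probe, and 61 of the 111 (55%) were detected on all 4 arrays. The 61 include the 7 detected of the 10 genes. For genes with several probes the level is that of the brightest detected probe. Among ligands of the family 2 of 12 were detected, Tgfb1 and Gdf15, a stress-induced cytokine gene that lay at 3.59 ± 0.43 (SD, n = 4). Tgfb2, Tgfb3, the inhibin and activin genes Inha, Inhba and Inhbb, Nodal and the BMP genes Bmp2, Bmp4, Bmp6 and Bmp7 were not well above background.

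Genes listed for TGF-beta latency and release were detected in 6 of 16 cases. Ltbp2 is on this list by family alone, as its product is not known to bind latent TGF-beta. Nrros, whose product anchors latent TGF-beta on myeloid cells, lay at 3.86 ± 0.22 (SD, n = 4), Ltbp2 at -2.44 ± 0.27, and the integrin genes Itgb1 and Itgb3 at 1.501 ± 0.22 and -3.02 ± 0.25. Mmp9, a gelatinase gene, was also detected. Lrrc32, the anchor known from regulatory T cells and platelets, was not well above background, nor were Ltbp1, Ltbp3, Ltbp4, Thbs1, Itgb5, Itgb6, Plau and Plat, and Mmp14 passed on 1 to 3 arrays.

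Only probes well above background on all 4 arrays were tested for spread. Of all 14518 probes tested 63 were called (0.434%). Of the 75 tested probes in the lists other than cell type markers, which include the 8 of the 10 genes, 1 was called. The called one was that of Furin, the protease that cleaves the TGF-beta precursor. It lay at -0.03, 1.23, 0.96 and 1.22 on replicates 1 to 4, so replicate 1 was low and the other 3 were close together (0.85 ± 0.59, SD, n = 4; limma's prior variance, adjusted p = 0.0184). Without replicate 1 its SD was 0.15 (adjusted p = 0.986), and the call was also lost without replicate 3 or 4 (adjusted p = 0.0792 and 0.0539 by the same test), after quantile normalization (0.388) and with the 75th percentile of detected probes as the scale (0.714). Its spot lies in column 25, where the correction ratio was 1.40 on replicate 1 and 1.02 to 1.05 on the others. Before that correction the SD was 0.80 (adjusted p = 0.000760).

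Of the receptor genes 5 of 12 were detected. Beside Tgfbr1 and Tgfbr2 these were Eng, the co-receptor endoglin, at -2.94 ± 0.16 (SD, n = 4), Acvrl1, a type I receptor gene, at -0.31 ± 0.25, and Acvr2b. Tgfbr3, Acvr1, Acvr1b, Acvr2a, Bmpr1a and Bmpr1b were not well above background, and Bmpr2 passed on 1 to 3 arrays. Of the SMAD and cofactor genes 8 of 13 were detected, with Smad1 and Smad5, which serve BMP receptors, at -0.93 ± 0.08 and -3.74 ± 0.35. Crebbp, Sp1, Tfdp1 and E2f4 were the other detected cofactors, and Smad9, Zfyve9, Foxh1 and Runx3 were not well above background.

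The list of inhibitors also holds other regulators of the pathway, Usp15 and Dab2 among them. Its genes were detected in 9 of 12 cases. The ubiquitin ligase genes Smurf1 and Smurf2, whose products work with SMAD7, lay at 0.78 ± 0.07 and 0.09 ± 0.17 (SD, n = 4), the co-repressor gene Tgif1 at 1.21 ± 0.16, and Usp15, with the largest SD of this list, at -3.59 ± 0.31. Ppm1a, Strap, Fkbp1a and Dab2 were also detected, while Smad6, Bambi and Pmepa1 were not well above background. Of the non-SMAD signalling genes 8 of 9 were detected. The kinase gene Map3k7 lay at -2.12 ± 0.17, its partner gene Tab1 at 1.19 ± 0.14, Traf6 at -3.84 ± 0.15, Mapk8 at -4.12 ± 0.17 and Akt1, with the largest SD here, at 1.94 ± 0.27. Mapk14, Rhoa and Shc1 were detected too, and Pik3r1 passed on 1 to 3 arrays.

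Transcripts known as TGF-beta targets were detected in 7 of 14 cases. Beside Smad7 these were Klf10, an early-induced transcription factor gene, at 0.85 ± 0.11 (SD, n = 4), the inhibitors of DNA binding Id1 and Id2 at 0.81 ± 0.41 and 1.43 ± 0.08, Junb at -1.63 ± 0.06, Bhlhe40 and Timp1. Id1 was highest on replicate 1, at 1.40 against 0.48 to 0.71 on the others, and without replicate 1 its SD was 0.12. It was not called (limma's prior variance, adjusted p = 0.220). Ccn2, Tgfbi, Id3, Pmepa1, Col4a1 and Vegfa were among those that passed on none of the arrays. As unexposed cells were not analysed here, none of these levels measures a response of the pathway.

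The macrophage genes linked to lung fibrosis were detected in 14 of 23 cases. Trem2, a lipid-sensing receptor gene, lay at 6.62 ± 0.13 (SD, n = 4), the tetraspanin genes Cd9 and Cd63 at 1.82 ± 0.05 and 5.37 ± 0.11, and the chemokine gene Ccl2, with the largest SD of this list, at 3.17 ± 0.37. Lgals3, Fabp5, Lpl, Apoe, Mmp12, Igf1, Arg1, Mrc1 and Timp2 were detected as well. Spp1, Fn1, Chi3l1, Sparc and the growth factor genes Pdgfa, Pdgfb and Pdgfc were not well above background, and Mmp14 and Mertk passed on 1 to 3 arrays. Genes of receptors for osteopontin and fibronectin were detected in all 5 cases with a probe: Cd44 at 3.64 ± 0.20, Itga4 at -3.01 ± 0.39, Itga5, Itgb1 and Itgb3.

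**Figure D5:**
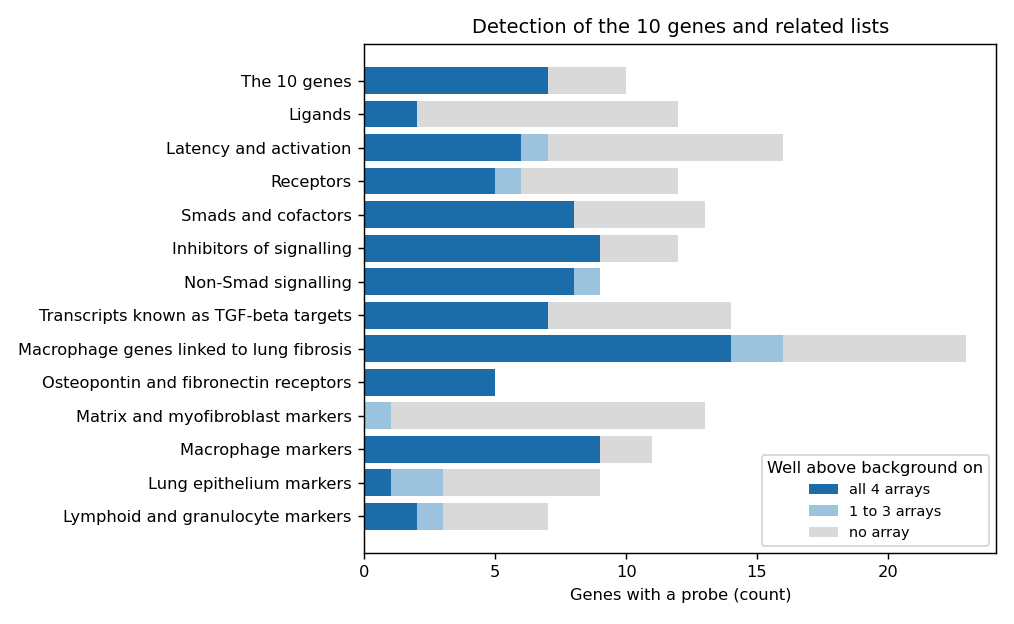
Number of genes with a probe in each list, split by whether the gene was well above background on all 4 arrays, on 1 to 3 arrays or on none. The 10 genes had 7 detected, the target list 7 of 14 and the matrix and myofibroblast markers 0 of 13.

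Cell type markers were checked on the same arrays. Of 11 macrophage markers with a probe 9 were detected, with Cd68 at 4.62 ± 0.14, Csf1r at -0.53 ± 0.09, Mrc1 at -2.35 ± 0.29 and Itgam at 1.11 ± 0.09 (SD, n = 4), while Adgre1 and Marco were not well above background. Of 13 matrix and myofibroblast markers 0 were detected on all 4 arrays, and Thy1 passed on 1 to 3 arrays. Col1a1, Col1a2, Col3a1, Col5a1, Acta2, Tagln, Postn, Dcn, Lum, Pdgfra, Pdgfrb and Eln passed on none. What part other cell types have in the values above was not tested. Of 9 epithelial markers 1 was detected (Foxj1, -2.87 ± 0.35), while Krt18 and Ager passed on 1 to 3 arrays and Sftpc, Sftpb, Epcam, Cdh1, Krt8 and Scgb1a1 on none. Of 7 lymphoid and granulocyte markers 2 were (Nkg7, -1.20 ± 0.19, and S100a8, -1.46 ± 0.30), Cd3d passed on 1 to 3 arrays, and Cd3e, Elane and Cpa3 were among those that passed on none.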

How the data were processed

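Total RNA of 4 cultures was labelled with Cy3 from 100 ng and hybridised to 4 one-colour arrays of 1 slide, per the labels' protocols and the file headers. Sample titles gave the group and the number of each replicate. The deposited intensity values are background-subtracted, spatially detrended signals of single spots, made with Feature Extraction 11.0.1.1 and without scaling across arrays, per the file headers. The signal before detrending, the median spot and background signals and flags were also used.

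Of 58717 non-control spots, 634 to 669 per array were left out as outliers. The 75th percentile was taken over the rest, spots of 1 probe were averaged, and no difference between levels of 2 probes is given; for related genes with several probes, the one with the highest level stands for the gene. Detected probes numbered 15314 to 16708 per array. Names of 21109 probes came from RefSeq; the files use an older build (rn4), so GRCr8 coordinates are given for promoter windows alone. Each probe's variance (3 degrees of freedom) was divided by limma's trended, robust prior variance (limma 3.58.1, R 4.3.3; 20.89 prior degrees of freedom), with Benjamini-Hochberg adjustment and calls at 0.05. The test was checked on simulated data.

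The members and lists were chosen with earlier results of these data known. All probes matched to the 10 genes are named. Of other lists, the first 4 detected genes, the one with the largest SD and any called gene have values, and a few others are named by their detection; some list genes are not reported here by name. The number of arrays limits the precision.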

Additional observations from a re-analysis of the deposited data

Results flagged for a closer look

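The 8 detected probes of the 10 genes and 36 related genes were examined for a single array far from the rest, and 1 stood out by Dixon's ratio of gap to range. Chance alone gives about 1 in 20 for groups of 4. It was Junb, a transcription factor gene, which lay at -1.60, -1.60, -1.71 and -1.60 on replicates 1 to 4. Its ratio was 0.967 because replicates 1, 2 and 4 nearly coincided, and its SD was 0.06. None of the 8 probes of the 10 genes passed that ratio.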

How the results depend on the processing

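The 7 detected genes stayed 7 with the significance flag, when 1 array sufficed, with flagged spots kept and without any replicate, and came to 6 when every probe had to be detected. Genes detected in the related lists, the 10 genes included, ran from 55 (every probe detected) to 69 (significance flag), around 61. Without single replicates they numbered 61 to 62. Naming by a gene symbol column was not run, as the files used here have none. No probe of the 10 genes was called under 15 alternatives (0 of 8, or of the fewer tested), and over their 110 recomputed SDs the lowest adjusted p was 0.162, for Tgfb1 with probes above the median level alone. The SD of Tgfb1 ran from 0.17 (normexp with offset 50 on median spot signals) to 0.41 (without replicate 2). Those median signals are not spatially detrended, so the normexp setting differs from the main one in detrending as well as in background correction. Called probes of the related genes (1 in the report, Furin) numbered 3 with normexp and with probes above the median level alone, 0 after quantile normalization, with the 75th percentile of detected probes, beyond column 72, and with a prior lacking robust estimation or the trend, and 0 to 1 without single replicates. Id1 was called with normexp (adjusted p = 0.0145) and with probes above the median level alone (0.0216), and Gdf15 with the second of these (0.0244). Over all probes the 63 calls became 389 with normexp, 216 with the signal before detrending, 135 with probes above the median level, 37 with flagged spots kept, 35 beyond column 72, 16 without robust estimation, and 1 each after quantile normalization, with the 75th percentile of detected probes and without the trend. Calls numbered 15 without replicate 3 and 28, 73 and 149 without replicates 4, 1 and 2; of the 63, those also called were 15, 28, 17 and 57, and 11 beyond column 72. Fewer probes were tested beyond column 72 and above the median level; otherwise the cause was not tested. The signal before detrending and the use of spots beyond column 72 for the levels of single probes were chosen after seeing the data. Other scales shift every level, so 51 of 120 recomputed levels of these probes moved by more than their SD. No paired analysis was possible because there is only 1 group.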
